A study of Mus musculus with 12 samples.

Results

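In the mouse duodenum, 44 genes were lower in each high-fat diet library than in each chow library and higher in each library of mice on that diet given pregnenolone carbonitrile (PCN) than in each vehicle library. They were taken from the 26121 genes listed in both deposited count tables. The rule used CPM, the raw count of a gene divided by the total of its library and multiplied by 1000000. A gene entered when each HFD value lay under each Chow value, each HFD PCN value lay over each HFD Vehicle value, and the mean reached 1 CPM in Chow and in HFD PCN. The log2 ratio of the group means, with 0.5 CPM added to each, also had to be at least 0.585 (1.5-fold) in size in both comparisons. Of 80 genes that met these terms, 36 were set aside by the start of their symbol, among them 18 of the drug-metabolising families (11 Cyp, 4 Gst, 2 Ugt and 1 Ces gene, with the pseudogenes Cyp2c53-ps and Gstm2-ps1) and 15 predicted genes named Gm. The direction and size of the 44 genes in these 2 comparisons are therefore given by the rule and are described here without a test.

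The study measured total RNA of the duodenum by sequencing in 12 libraries of C57BL/6N mice, 3 in each of 4 groups. Mice entered their diet at the age of 6 weeks and stayed on it for 18 weeks. Chow mice ate regular chow without treatment, and HFD mice ate high-fat diet without treatment. HFD Vehicle mice ate the same high-fat diet and received corn oil with 30% DMSO into the peritoneum once a day for 4 days, and HFD PCN mice received PCN at 50 mg/kg on the same schedule. The labels of HFD PCN name no solvent, and both injected groups were on the high-fat diet. Each library carries a number of its own, but no label says that these are separate animals, so p-values measure the spread between these samples, which may be technical.

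PCN activates PXR (the pregnane X receptor, gene Nr1i2) of rodents, a nuclear receptor that senses bile acids, steroids and foreign compounds. With its partner RXR it binds pairs of short hexamers in regulatory DNA and raises genes of oxidation, conjugation and export in liver and gut. The duodenum is lined by enterocytes, which digest and absorb food, with T cells lying between them, and its epithelium expresses PXR. Nr1i2 itself ranged from 125 to 201 CPM over the 12 libraries.

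Library totals ran from 4676718 to 20684369 counts, with a median of 15404357. The extraction protocol names liver, whereas the tissue label is duodenum: the enterocyte gene Vil1 stood at 912 to 2489 CPM and the hepatocyte gene Alb at 0.104 to 1.11 CPM. HFD Vehicle 23 stood apart, with 33.6% of its counts in mitochondrial ribosomal RNA against 8.69% to 19.2% in the others, and with a sum over 30 mature enterocyte markers of 16329 CPM. That sum was 27269 CPM in HFD 4 and 41826 to 65548 CPM in the other 10 libraries. The heat shock gene Hsp90aa1 reached 1427 and 1453 CPM in HFD Vehicle 23 and 50, against 60.6 to 465 CPM elsewhere. In HFD 4, 13.0% of counts fell on genes outside the other table, against at most 2.75% in the other libraries.

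**Figure D1:**
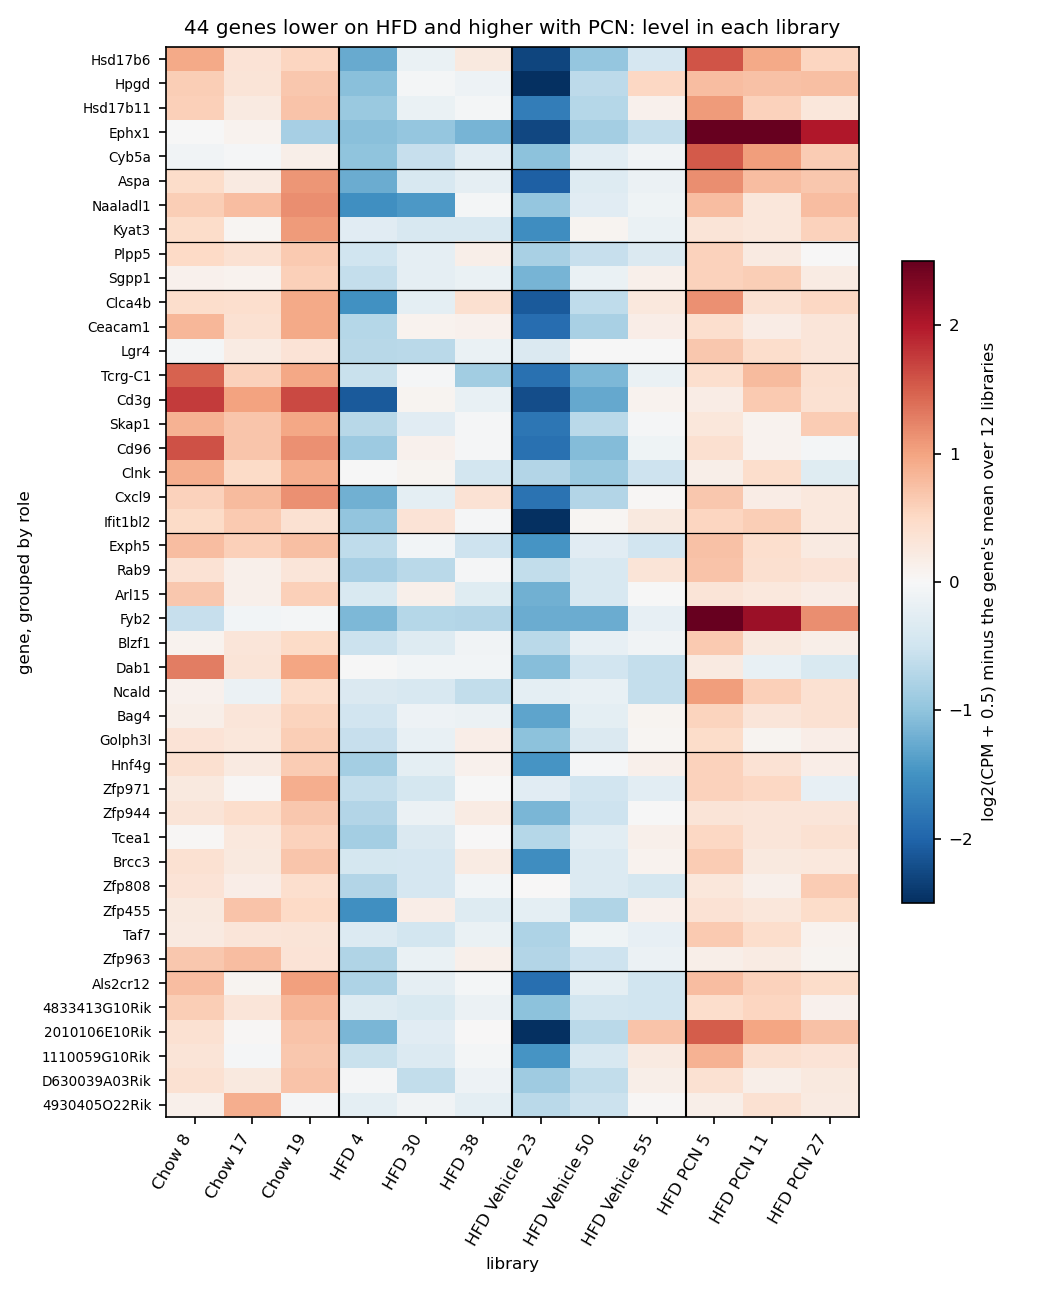
Level of the 44 genes (rows, grouped by role) in the 12 libraries (columns), as log2(CPM + 0.5) minus the mean of the gene over the 12 libraries, with colours ending at 2.5 to either side. The darkest blue columns are HFD Vehicle 23 and HFD 4, the library medians being -1.23 and -0.72, and the chow and PCN columns are mostly red.

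The members differed widely in level. In Chow, 13 of the 44 genes averaged under 10 CPM and 10 averaged at least 100 CPM, and 11 had fewer than 10 counts in some library. The fold between Chow and HFD means ran from 1.51 to 4.56 with a median of 1.78, and the fold between HFD PCN and HFD Vehicle means ran from 1.51 to 13.3 with a median of 1.89. Only 7 genes were at least 2-fold apart in both comparisons on the rule's scale (Aspa, Cd3g, Cxcl9, Exph5, Naaladl1, Skap1 and Tcrg-C1), and 25 were under 2-fold in both. HFD 4 was the lowest HFD library for 35 of the 44 genes, where it was lowest for 52.2% of the 14257 genes that average at least 1 CPM in Chow and in HFD PCN. HFD Vehicle 23 was the lowest vehicle library for 38 of the 44, against 60.2% of those genes, and HFD PCN 5 was the highest PCN library for 31, against 27.2%.

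Among 5 enzymes of oxidation, reduction and hydrolysis, and among all 44 genes, the largest PCN difference belonged to Ephx1 (chr1:180976210-181020904 on GRCm38), microsomal epoxide hydrolase, which opens reactive epoxides left by cytochrome P450 enzymes. Its CPM were 27.9, 30.1 and 15.7 in Chow, 13.4, 14.3 and 12.3 in HFD, 5.39, 15.4 and 18.6 in HFD Vehicle, and 225, 184 and 114 in HFD PCN. The PCN libraries were far above all others, and the lowest Chow library was only just above the highest HFD library. The PCN mean was 13.3 times the vehicle mean and 709% of the Chow mean (174 ± 56 CPM against 24.5 ± 7.72, SD, n = 3 each). A list of PXR and CAR target genes outside the set-aside families, 37 of them measured, includes Ephx1. Between HFD PCN and HFD Vehicle, 27 of the 37 had a positive fitted difference (median log2 0.40, all genes -0.01), and 1 was called. Between HFD and Chow, 20 were positive and 17 negative (median 0.07, all genes 0.00), with 0 called.

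Cyb5a, the microsomal cytochrome b that passes electrons to cytochrome P450 and desaturase enzymes, was the most abundant of these 5 enzymes in the PCN group. It stood at 207, 216 and 245 CPM in Chow, 110.5, 148 and 184 in HFD, 109, 183 and 207 in HFD Vehicle, and 643, 456 and 342 in HFD PCN. The vehicle libraries spanned the HFD libraries and came up to the lowest Chow library, while each PCN library lay above each of the other 9. Hsd17b6, which oxidises steroids and retinoids, stood at 96.6, 63.5 and 72.5 CPM in Chow and at 20.5, 44.1 and 58.8 in HFD. In HFD Vehicle it stood at 9.78, 25.2 and 37.2 CPM, and in HFD PCN at 149, 96.1 and 72.1. Hsd17b6 thus had its lowest mean with vehicle, and its PCN libraries overlapped the Chow libraries.

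Hsd17b11 and Hpgd were among the 6 members of highest mean level. Hsd17b11, a dehydrogenase of lipid droplets, stood at 300.2, 231 and 325 CPM in Chow, 103, 177 and 190.1 in HFD, 59.1, 119.7 and 213 in HFD Vehicle, and 415, 293 and 241 in HFD PCN. Hpgd, which inactivates prostaglandins, stood at 305, 250.1 and 317 CPM in Chow, 95.6, 192 and 182 in HFD, 34.8, 126 and 286 in HFD Vehicle, and 340.1, 329.7 and 336 in HFD PCN. The PCN libraries of Hpgd had an SD of 5.24 CPM, whereas its vehicle libraries had an SD of 127 CPM and reached into the Chow range.

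**Figure D2:**
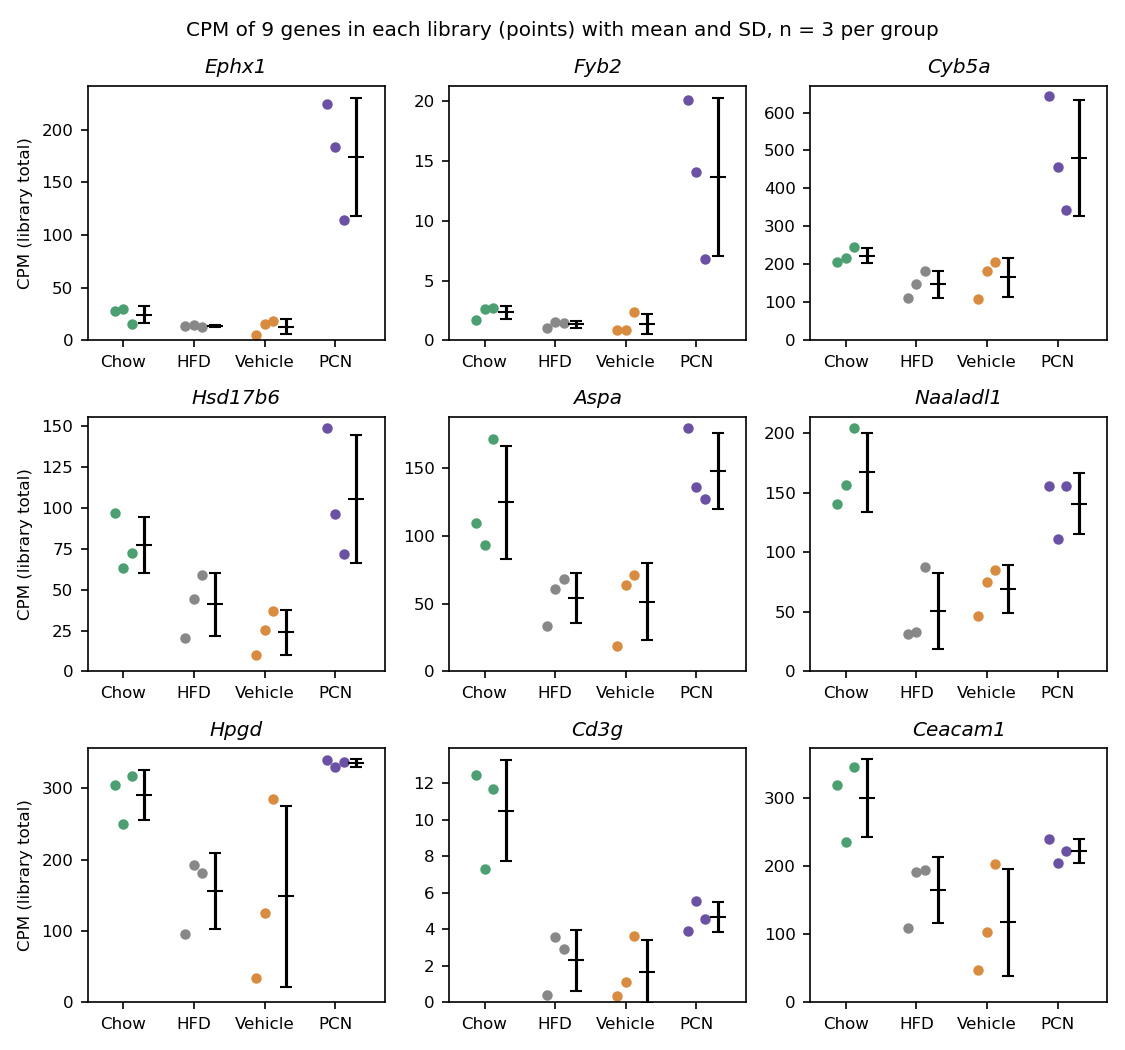
CPM over the library total (y axis, from 0) of 9 genes in each library of the 4 groups; points are libraries, bars are mean ± SD (n = 3), cut at 0 for Cd3g. Ephx1, Fyb2 and Cyb5a stand far above Chow with PCN (709%, 582% and 216% of the Chow mean), and Cd3g stands at 44.7% of it.

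A few promoters are shown because PXR is known to act through DNA. RefSeq windows on GRCm38.p6, from 250 bases before to 50 after a transcription start, were found for 32 of the 44 genes (36 windows, some genes having more than 1 start). The hexamers AGTTCA and AGGTCA were searched on both strands, as were pairs of them in direct repeat with a spacer of 3, 4 or 5 bases and in everted repeat with a spacer of 6 bases. AGTTCA stood in 10 of the 36 windows (27.8%) and in 14.0% of all 32851 windows. Overlapping windows of Hsd17b6, of which 1 is printed below, hold the same copy. Counted by gene, AGTTCA stood in 9 of the 32 (28.1%) and in 15.7% of all genes. AGGTCA stood in 5 windows (13.9%) and in 16.3% of all. No window of a member held such a pair, which 0.0883% of all windows hold. A match is a description of letters, and an absent match says nothing of the receptor. The windows below were chosen after these values were seen: Ephx1, which had the largest PCN difference, Hsd17b6, the next in size among the 5 genes above, and 2010106E10Rik, which held the most copies of AGTTCA. They are printed 5′ to 3′ on the strand of the gene, with hexamer matches in capitals (TGAACT is AGTTCA on the opposite strand), and lie at chr1:181017520-181017819 (minus strand), chr10:128007459-128007758 (minus strand) and chrX:112495024-112495323 (plus strand).
Ephx1: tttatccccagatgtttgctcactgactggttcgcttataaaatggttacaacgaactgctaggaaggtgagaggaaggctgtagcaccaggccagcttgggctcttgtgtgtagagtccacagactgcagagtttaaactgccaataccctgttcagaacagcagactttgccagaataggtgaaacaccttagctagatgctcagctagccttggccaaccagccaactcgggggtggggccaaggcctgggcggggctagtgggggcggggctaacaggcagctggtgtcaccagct
Hsd17b6: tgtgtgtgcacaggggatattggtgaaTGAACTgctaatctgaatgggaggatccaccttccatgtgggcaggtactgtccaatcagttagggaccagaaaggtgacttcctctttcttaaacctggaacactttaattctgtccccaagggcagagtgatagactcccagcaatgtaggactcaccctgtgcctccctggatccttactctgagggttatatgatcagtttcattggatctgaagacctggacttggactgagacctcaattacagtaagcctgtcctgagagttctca
2010106E10Rik: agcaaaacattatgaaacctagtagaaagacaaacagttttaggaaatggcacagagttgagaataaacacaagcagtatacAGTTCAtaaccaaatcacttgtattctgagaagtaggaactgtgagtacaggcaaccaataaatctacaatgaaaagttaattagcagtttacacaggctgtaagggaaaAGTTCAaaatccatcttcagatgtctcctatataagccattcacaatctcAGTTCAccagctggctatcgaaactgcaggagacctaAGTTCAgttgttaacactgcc
The Ephx1 window held neither hexamer, the Hsd17b6 window held 1 copy of AGTTCA, and the 2010106E10Rik window held 4. The member windows had a median GC content of 53.7%, and all windows had 52.7%.

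Of 3 genes of amino acid and peptide metabolism, Aspa, aspartoacylase, which splits N-acetylaspartate, stood at 109, 92.8 and 172 CPM in Chow and at 33.3, 60.5 and 68.01 in HFD. It stood at 18.9, 63.7 and 71.4 CPM in HFD Vehicle and at 179, 136 and 127 in HFD PCN. The 6 libraries of Chow and PCN all lay above the 6 others, in which HFD Vehicle 23 and HFD 4 were lowest. Naaladl1, a peptidase of the enterocyte brush border, stood at 141, 157 and 205 CPM in Chow, 31.5, 33.4 and 87.8 in HFD, 46.6, 75.2 and 85.3 in HFD Vehicle, and 155, 111 and 156 in HFD PCN. Its HFD low values came from 2 libraries, HFD 4 and HFD 30, and its vehicle mean was 136% of its HFD mean. Of 19 peptide digestion genes measured, Naaladl1 included, 16 had a negative fitted difference between HFD and Chow (median log2 -0.70), 17 a positive one between HFD PCN and HFD Vehicle (median 0.62), and 0 were called in either. Kyat3, a kynurenine aminotransferase, was low, at 5.29 to 11.1 CPM in Chow and 3.71 to 4.06 in HFD, 1.39 to 5.32 in HFD Vehicle and 6.26 to 7.78 in HFD PCN.

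Of 2 enzymes of lipid phosphates, Sgpp1, which removes the phosphate of sphingosine phosphate, ranged from 40.6 to 57.7 CPM in Chow, 24.97 to 34.01 in HFD, 16.6 to 41.7 in HFD Vehicle and 44.1 to 58.1 in HFD PCN. Plpp5, a phospholipid phosphatase, ranged from 27.9 to 33.7 CPM in Chow, 15.03 to 23.8 in HFD, 11.9 to 16.5 in HFD Vehicle and 21.4 to 32.00 in HFD PCN. Plpp5 and Bag4 are neighbours on chromosome 8, 39651 bases apart, and Dab1 and Fyb2 on chromosome 4, 168612 bases apart; no other pair of members lay closer than 2164051 bases.

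Among 5 lymphocyte genes, Cd3g (chr9:44969572-44980431), the gamma chain of the CD3 signalling complex of T cells, had the largest difference between the diets. It stood at 12.5, 7.32 and 11.7 CPM in Chow, 0.406, 3.57 and 2.93 in HFD, 0.333, 1.095 and 3.64 in HFD Vehicle, and 3.92, 5.57 and 4.59 in HFD PCN. The PCN libraries lay above the vehicle and the HFD libraries, and below each Chow library. Tcrg-C1, the constant region of the gamma chain of the gamma-delta T cell receptor, stood at 5.69, 2.803 and 3.85 CPM in Chow and 1.02, 1.67 and 0.717 in HFD. In HFD Vehicle it stood at 0.111, 0.522 and 1.497 CPM and in HFD PCN at 2.47, 3.38 and 2.45. Reads of Tcrg-C1 may be shared with near-identical constant regions, so its level is uncertain.

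Cd96, a receptor of T and NK cells, stood at 7.99, 4.05 and 5.73 CPM in Chow, 1.02, 2.54 and 2.27 in HFD, 0.278, 0.834 and 2.14 in HFD Vehicle, and 3.24, 2.502 and 2.24 in HFD PCN. Skap1, an adaptor of T cell receptor signalling, stood at 5.21, 4.52 and 5.599 CPM in Chow, 1.42, 2.05 and 2.57 in HFD, 0.389, 1.46 and 2.57 in HFD Vehicle, and 3.29, 2.82 and 4.37 in HFD PCN. Clnk, an adaptor of immune cells, ranged from 2.18 to 3.15 CPM in Chow, 0.896 to 1.51 in HFD, 0.522 to 0.855 in HFD Vehicle and 1.07 to 2.13 in HFD PCN. In all 5 of these genes the PCN mean stayed below the Chow mean, at 44.7% to 68.4% of it.

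A wider list of 25 T and NK cell markers holds Cd3g and Tcrg-C1. Its summed level was 183 to 278 CPM in Chow, 49.7 to 128 in HFD, 18.9 to 129 in HFD Vehicle and 119.9 to 135 in HFD PCN, and 0 of the 25 genes were at 0 in every library of a group. The fitted log2 difference between HFD and Chow was negative in 22 of 23 markers measured (median -1.10, all genes 0.00), and that between HFD PCN and HFD Vehicle was positive in 23 of 24 (median 1.12, all genes -0.01), with 0 called in either. In bulk tissue, fewer cells of a type and less RNA per cell cannot be told apart. In the same 2 comparisons, B and plasma cell markers had medians of -0.29 and 0.08, myeloid markers of 0.53 and -0.23, and pancreatic acinar markers of -1.87 and -1.51.

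**Figure D3:**
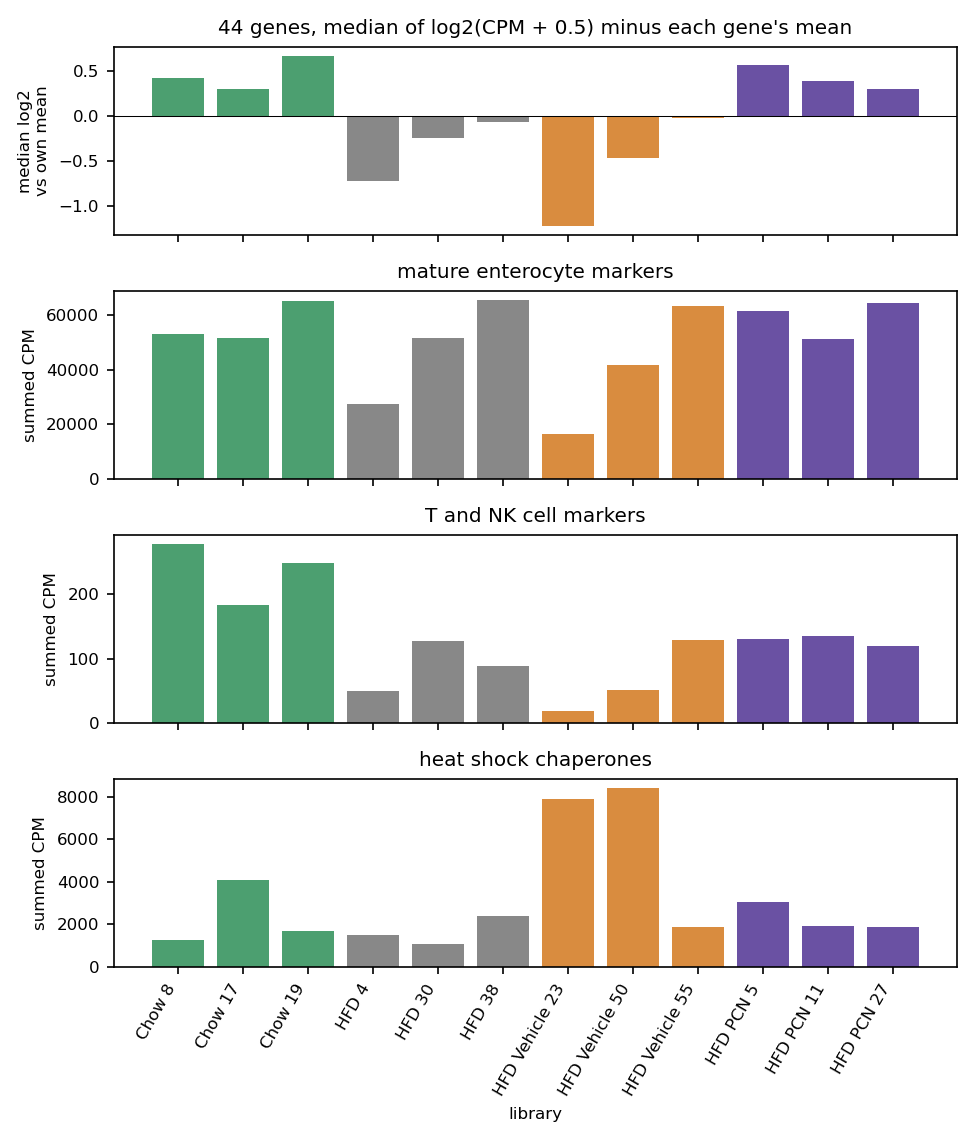
Per library, the median over the 44 genes of log2(CPM + 0.5) minus the mean of each gene (top), and the summed CPM of 30 mature enterocyte, 25 T and NK cell and 11 heat shock chaperone genes, in bars coloured by group (green Chow, grey HFD, orange HFD Vehicle, purple HFD PCN). HFD 4 and HFD Vehicle 23 are low in the first 3 panels, and HFD Vehicle 23 and 50 are high in the last (7880.4 and 8422 CPM).

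Of 2 interferon-induced genes, Cxcl9, a chemokine that draws T cells, stood at 3.996, 4.67 and 6.14 CPM in Chow, 0.812, 2.05 and 3.35 in HFD, 0.333, 1.304 and 2.57 in HFD Vehicle, and 4.303, 2.94 and 3.09 in HFD PCN. Ifit1bl2, of the Ifit family whose copies can share reads, stood at 270.4, 308 and 254 CPM in Chow, 97.9, 248 and 191 in HFD, 32.2, 200.4 and 231 in HFD Vehicle, and 282, 297 and 232 in HFD PCN. The separation of Ifit1bl2 was narrow in both comparisons, HFD 30 lying just under Chow 19 and HFD Vehicle 55 just under HFD PCN 27. The list of 30 interferon response genes, which holds Cxcl9, did not follow these 2: of 28 measured, 17 had a positive fitted difference between HFD and Chow (median log2 0.29) and 14 a positive one between HFD PCN and HFD Vehicle (median 0.01), with 0 called.

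Among 3 surface and secreted proteins, Clca4b, of a family of secreted regulators of chloride transport whose copies can share reads, was the most abundant member. It stood at 1054, 1038 and 1500.0 CPM in Chow, 272, 658 and 1035 in HFD, 181, 504 and 936 in HFD Vehicle, and 1716, 1014 and 1109 in HFD PCN. HFD 38 came within a few CPM of Chow 17. The lowest values were those of HFD 4 and HFD Vehicle 23, and HFD 30 and HFD Vehicle 50 were also low, at 658 and 504 CPM. Ceacam1, an adhesion glycoprotein of the epithelial surface, ranged from 236 to 346 CPM in Chow, 109.8 to 195 in HFD, 47.8 to 203 in HFD Vehicle and 205 to 240.3 in HFD PCN. Lgr4, the R-spondin receptor of crypt cells, ranged from 80.2 to 105 CPM in Chow, 51.4 to 74.3 in HFD, 64.3 to 82.8 in HFD Vehicle and 102 to 132 in HFD PCN.

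Among 9 genes of membrane traffic and adaptors, Exph5, an effector of Rab proteins in vesicle transport, stood at 45.4, 40.02 and 44.4 CPM in Chow, 16.6, 24.96 and 18.2 in HFD, 9.11, 21.4 and 18.6 in HFD Vehicle, and 43.99, 35.1 and 30.7 in HFD PCN. Its 6 libraries of Chow and PCN all lay above the 6 others by more than 5 CPM. Fyb2 (chr4:104913456-105016863), an adaptor related to the T cell adaptor Fyb, was picked after its values were seen: 1.695, 2.65 and 2.699 CPM in Chow, 1.02, 1.51 and 1.49 in HFD, 0.889, 0.887 and 2.35 in HFD Vehicle, and 20.1, 14.1 and 6.82 in HFD PCN. The PCN mean of Fyb2 was 9.92 times its vehicle mean, and each PCN library was more than 2-fold above each other library, while the diet difference rested on low counts. Dab1, the adaptor of reelin receptors, was likewise picked after its values were seen: 95.1, 48.7 and 77.4 CPM in Chow, 38.4, 36.6 and 36.99 in HFD, 18.3, 27.5 and 25.4 in HFD Vehicle, and 45.3, 33.97 and 29.8 in HFD PCN. Its PCN libraries lay above vehicle and below each Chow library, and they spanned the HFD libraries.

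The other 6 genes of traffic and adaptors differed by 1.51- to 1.69-fold between Chow and HFD means. Rab9 of late endosomes had means of 19.6 CPM in Chow, 11.6 in HFD, 14.3 in HFD Vehicle and 23.00 in HFD PCN. Arl15, an Arf-like GTPase, had 30.3, 18.97, 15.5 and 25.8 CPM in the same order. The calcium sensor Ncald had 15.5, 10.03, 10.9 and 22.9 CPM, and the co-chaperone Bag4 had 53.5, 35.2, 31.9 and 55.7 CPM. Both Golgi proteins were close in shape: Blzf1 had means of 25.99, 16.9, 17.01 and 27.2 CPM, and Golph3l of 63.9, 42.2, 36.4 and 56.2 CPM. Ncald overlaps 11 other annotated genes, so part of its reads cannot be assigned with certainty.

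Among 9 genes of transcription and the nucleus, Hnf4g, a nuclear receptor that drives enterocyte genes, stood at 569, 500.1 and 663 CPM in Chow, 237, 362 and 462 in HFD, 154, 420.2 and 467 in HFD Vehicle, and 643, 552 and 484 in HFD PCN. HFD 38 and HFD Vehicle 50 and 55 lay within 20% of the lowest Chow library, and HFD Vehicle 23 was far below the rest. Tcea1, an elongation factor of RNA polymerase II, had means of 39.1 CPM in Chow, 24.4 in HFD, 26.5 in HFD Vehicle and 41.7 in HFD PCN. Taf7, a subunit of the general factor TFIID, had 15.2, 9.87, 9.78 and 16.7 CPM in that order, and the deubiquitinase Brcc3 had 31.4, 20.01, 16.6 and 30.1. Genes named Zfp made up 2.22% of the 14257 genes, which still hold the families that the rule set aside. The 5 zinc finger genes Zfp971, Zfp944, Zfp808, Zfp455 and Zfp963 made up 11.4% of the members and can share reads with related copies. Their Chow means were 1.54 to 19.5 CPM, and Zfp455 had 0 counts in HFD 4, where 3 counts would be 0.609 CPM.

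Another 6 genes are named here with no role. 2010106E10Rik, whose promoter window is shown above, stood at 323, 251 and 406 CPM in Chow, 111, 202 and 249.7 in HFD, 30.7, 155 and 407 in HFD Vehicle, and 703, 493 and 409.7 in HFD PCN. Its vehicle libraries covered the whole range of the Chow and HFD libraries, and HFD Vehicle 55 fell just short of HFD PCN 27. Als2cr12 stood at 6.902, 4.05 and 8.37 CPM in Chow, 2.03, 3.19 and 3.71 in HFD, 0.667, 3.13 and 2.57 in HFD Vehicle, and 6.91, 5.94 and 5.44 in HFD PCN. The transcript 4833413G10Rik stood at 4.72, 3.74 and 5.599 CPM in Chow, 2.23, 2.11 and 2.57 in HFD, 1.17, 1.98 and 1.92 in HFD Vehicle, and 4.16, 4.44 and 3.199 in HFD PCN. 1110059G10Rik, D630039A03Rik and 4930405O22Rik had Chow means of 12.3, 15.8 and 3.45 CPM and HFD means of 7.63, 9.62 and 2.13 CPM.

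By the annotation of GENCODE M21, 41 of the 44 genes were protein coding (93.2%, against 87.4% of the 14257 genes). A total of 24 overlap another annotated gene, 17 of them on the opposite strand. The strand setting of the counting is not given in the sources used here, so reads of such partners cannot be told apart. All 44 passed the filter on low counts in each of the 4 fits below; the rule had asked for at least 1 CPM on average in Chow and in HFD PCN.

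Around the threshold of 0.585 on the log2 scale, the smaller of the 2 sizes was 0.585 for Zfp963, 0.588 for 4930405O22Rik and 0.589 for Lgr4, just inside. Just outside were Ttc39b (-0.58 for HFD over Chow), Rnf32 (0.58 for HFD PCN over HFD Vehicle) and 4933421O10Rik (-0.57 for HFD over Chow). At any fold, 225 genes had no overlap between groups in both comparisons. The set depended on the scaling: with TMM factors of each table, a scaling that matches the bulk of genes between libraries, 17 of the 44 met the rule and 27 did not, 24 of them for a miss in the diet comparison. TMM moved the median of the 14257 genes by 0.16 for HFD over Chow (from -0.14 to 0.01) and by -0.03 for HFD PCN over HFD Vehicle. Ephx1, Cyb5a, Fyb2, Hnf4g and Clca4b were among those lost, Ephx1 and Clca4b because groups overlapped and Cyb5a, Fyb2 and Hnf4g because the diet difference fell to between -0.44 and -0.56.

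A total of 14 genes met the rule under TMM factors of each table, under TMM factors over all 12 libraries, and without HFD 4 and HFD Vehicle 23. They were all 5 lymphocyte genes (Cd3g, Tcrg-C1, Cd96, Skap1 and Clnk), 3 of the 5 genes of oxidation, reduction and hydrolysis (Hsd17b6, Hsd17b11 and Hpgd), and Aspa, Naaladl1, Cxcl9, Exph5, Als2cr12 and 4833413G10Rik. None of the 9 transcription and nuclear genes and none of the 3 surface genes was among them. With a mean of at least 5 CPM asked in Chow and in HFD PCN, 7 of the 14 did not enter (the 5 lymphocyte genes, Cxcl9 and 4833413G10Rik). Leaving out HFD 4 and HFD Vehicle 23 alone, on CPM over the library total, kept 17 of the 44. The enterocyte marker sums were lowest in those 2 libraries, and over the 30 markers, which include Naaladl1, the fitted median was -0.04 for HFD over Chow and 0.62 for HFD PCN over HFD Vehicle (28 of 30 positive, 0 called). Their part in the members' values was not tested.

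The terms on diet and on PCN used separate libraries, and the size of their overlap is described here across all genes. The diet term was met by 734 of the 26121 genes and the PCN term by 718, and 80 met both, 10.9% of the first and 11.1% of the second, while 2.75% of all genes met the PCN term. Among the 14257 genes with means of at least 1 CPM in Chow and in HFD PCN, which alone could enter the rule, 80 of 648 met both (12.3%), while 4.85% met the PCN term. In the unlike direction, 9 of the 734 (1.23%) were lower with PCN, where 3.04% of all genes were. Under TMM factors of each table, 51 of 395 genes met both terms (12.9%, all genes 3.32%). In the mirrored direction, 32 of 205 genes higher in HFD (15.6%) were lower with PCN on CPM over the library total, and 84 of 465 (18.1%) under TMM. The scaling thus turned the balance of the 2 directions, from 80 against 32 genes to 51 against 84. No test of these shares was made, and these counts include the families that the rule set aside. Separate libraries do not make both terms independent, since the libraries differ in makeup as described above. The HFD and HFD Vehicle libraries with the lowest enterocyte marker sums were also the lowest of their groups for most members. The part of these libraries in the overlap was not tested.

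**Figure D4:**
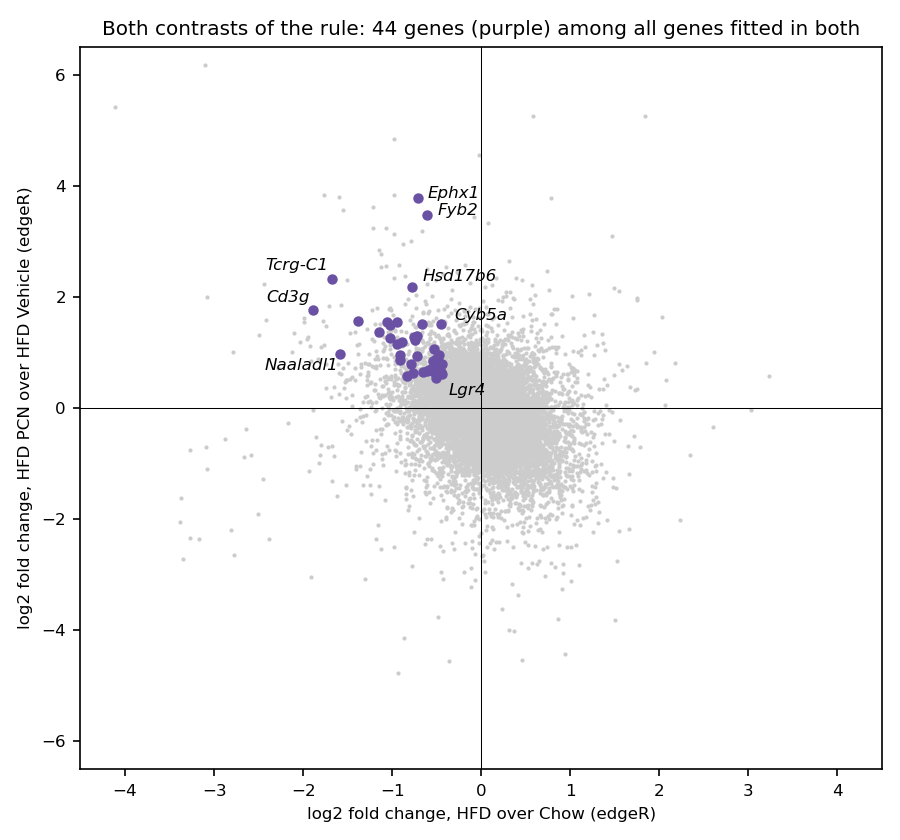
Fitted log2 fold change of HFD over Chow (x axis) and of HFD PCN over HFD Vehicle (y axis) for 15121 genes fitted in both (grey; 1 lies outside the axes) and the 44 genes (purple), which the rule places at the upper left. Ephx1 (3.77) and Fyb2 (3.48) stand highest on the y axis and Cd3g (-1.89) farthest left.

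In fits of edgeR's quasi-likelihood test over all genes, the differences of the 44 in the comparisons of the rule were all on the side the rule asks for. Median log2 differences were -0.69 for HFD over Chow, where all 15278 genes tested had a median of 0.00, and 0.94 for HFD PCN over HFD Vehicle, where all 16110 had -0.01. At an adjusted p under 0.05, 0 of the 44 were called lower in HFD than in Chow, beside 0.0589% of genes tested, and 37 stood at an unadjusted p under 0.05, beside 4.59%; DESeq2 called 4, among 79 genes lower in all. With PCN, 1 was called higher (Ephx1), beside 0.0497% of genes tested, and 35 stood at an unadjusted p under 0.05, beside 6.46%; DESeq2 called 9, among 107 genes higher in all. Since the rule used these comparisons, nothing is read from these counts. Fitted log2 values for HFD over Chow were -0.72 ± 0.26 (SE) for Ephx1, -1.89 ± 0.44 for Cd3g, -1.59 ± 0.33 for Naaladl1, -1.05 ± 0.25 for Aspa and -0.78 ± 0.30 for Hsd17b6. For HFD PCN over HFD Vehicle they were 3.77 ± 0.43 for Ephx1, 1.76 ± 0.61 for Cd3g, 0.98 ± 0.21 for Naaladl1, 1.54 ± 0.37 for Aspa and 2.18 ± 0.41 for Hsd17b6. Without HFD Vehicle 23 and 50, the libraries high in heat shock genes, the PCN median of the 44 was 0.55 and 0 were called.

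The rule sets no difference between HFD PCN and Chow, so this comparison asks whether the level with PCN was above, at or below that of chow-fed mice; both groups had been required to be high. On CPM over the library total, the median of the 44 PCN means was 95.2% of the Chow mean, and 19 of 44 were above it. The majority turned with the scaling. In the edgeR fit, which uses TMM, 25 of the 44 differences were positive and 19 negative (median log2 0.04, all genes -0.01). Every PCN library lay above every Chow library in 5 genes (Ephx1, Fyb2, Cyb5a, Hpgd and 2010106E10Rik), beside 4.07% of the 14257 genes. Every PCN library lay below every Chow library in 6 (Cd3g, Cd96, Skap1, Clnk, Dab1 and Zfp963), beside 11.9%. The other 33 overlapped. Members had to lie above vehicle in every PCN library and above HFD in every Chow library, which the 14257 genes did not. These shares are therefore not matched, nothing is read from them, and no test was made.

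The 5 genes of oxidation, reduction and hydrolysis each had a PCN mean above the Chow mean, from 111% in Hsd17b11 to 709% in Ephx1, and the 5 lymphocyte genes each had one below. By edgeR 0 were called in either role, and no test between roles was made. The fitted log2 differences were 2.98 ± 0.41 (SE) for Ephx1 (95% interval 1.98 to 3.98), 2.70 ± 0.44 for Fyb2 (1.71 to 3.69) and 1.24 ± 0.24 for Cyb5a (0.72 to 1.77). They were -1.05 ± 0.27 for Cd3g (-1.64 to -0.45) and -1.02 ± 0.31 for Cd96 (-1.71 to -0.33). Aspa (0.37, -0.16 to 0.90), Naaladl1 (-0.14, -0.46 to 0.19), Exph5 (-0.11, -0.50 to 0.27) and Hnf4g (0.08, -0.30 to 0.47) had intervals that held 0, as did 34 of the 44.

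By edgeR's quasi-likelihood test, 0 of the 44 were called between HFD PCN and Chow, beside 0.34% of 15300 genes tested (52 genes). A total of 10 stood at an unadjusted p under 0.05, beside 11.8% of genes: 7 higher with PCN, beside 6.28%, and 3 lower, beside 5.51%. Adjusted p-values from edgeR were 0.0518 for Fyb2, 0.0624 for Ephx1, 0.0714 for Cyb5a, 0.161 for Cd3g and 0.229 for Cd96. DESeq2 called 6 of the 44, among 265 genes in all, and limma-voom 1, among 45. The fit of all 12 libraries in 1 model called 2, among 15, and the fit without HFD PCN 27 called 6, among 349. Over 12 settings, this one and its 11 alternatives, the adjusted p ran from 2.33e-22 to 0.221 for Ephx1, from 5.53e-09 to 0.223 for Fyb2 and from 8.63e-06 to 0.260 for Cyb5a. The same fit gave Cyp3a11, the classical PXR target among the set-aside families, a log2 difference of 2.16 ± 0.33 with an adjusted p of 0.0361, and it was called in 5 of the 12 settings. Of the 37 PXR and CAR targets outside those families, 1 was called between HFD PCN and Chow, and it was not a member (Gclc, log2 1.19, adjusted p 0.0255).

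**Figure D5:**
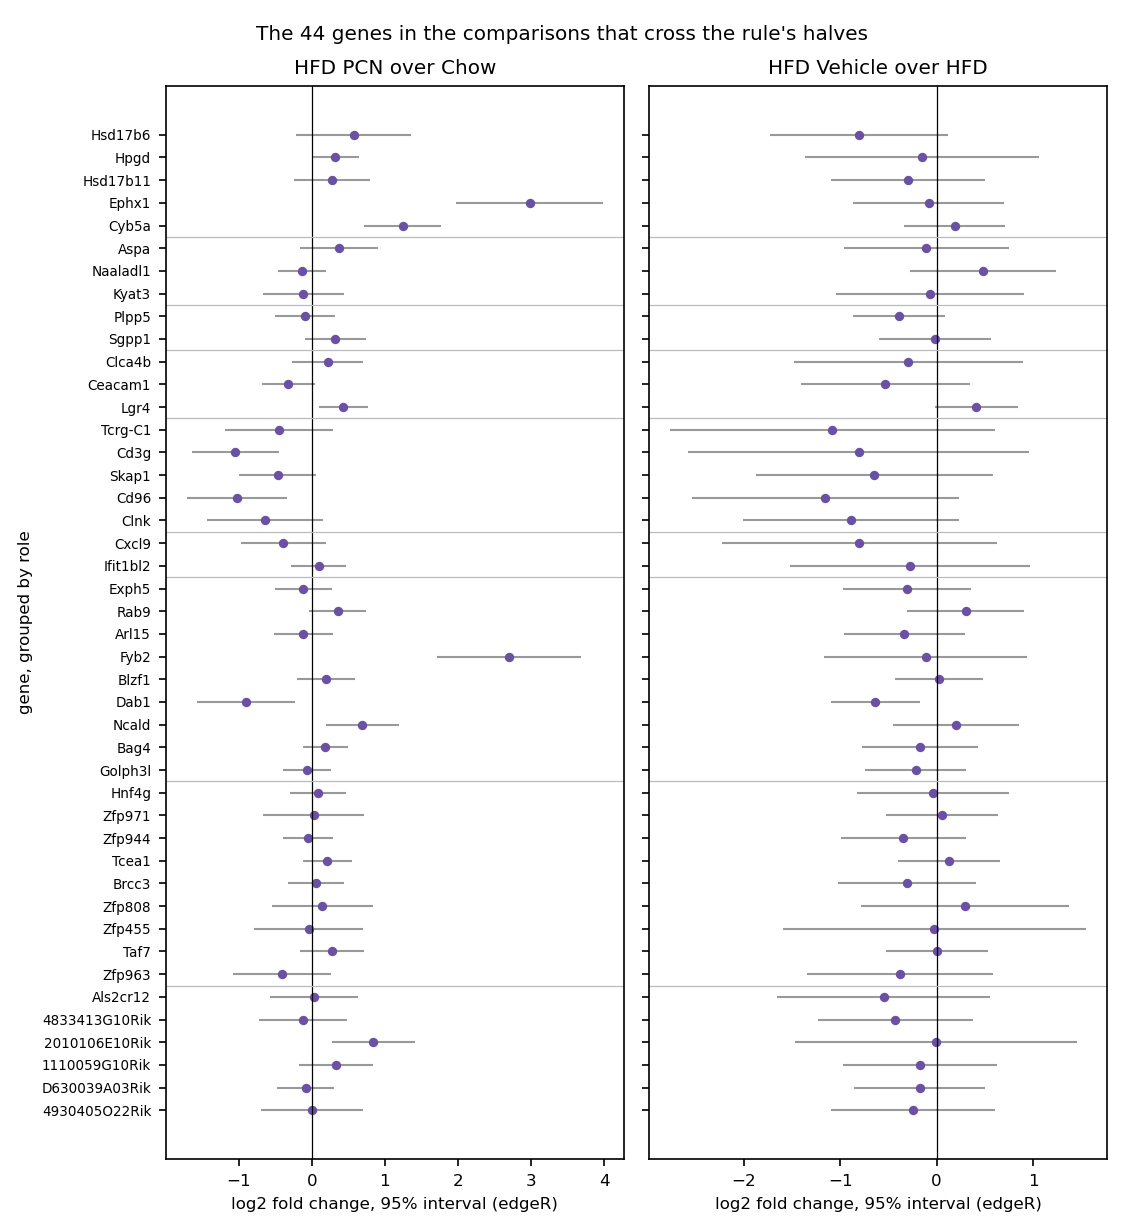
Fitted log2 fold change with 95% interval (x axis) of each of the 44 genes (y axis, grouped by role) for HFD PCN over Chow (left) and HFD Vehicle over HFD (right), from edgeR. On the left Ephx1 (2.98), Fyb2 (2.70) and Cyb5a (1.24) lie farthest right and Cd3g (-1.05) and Cd96 (-1.02) farthest left; on the right Dab1 (-0.64) is the gene whose interval leaves out 0.

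HFD Vehicle and HFD are the groups that the rule asked to be low. The members had a median log2 difference of -0.20 for HFD Vehicle over HFD, 34 of 44 being negative. By edgeR's quasi-likelihood test 0 were called, beside 0% of 16255 genes tested. Dab1 alone stood at an unadjusted p under 0.05 (log2 -0.64 ± 0.20, adjusted p 0.803), beside 5.86% of genes (3.65% higher and 2.21% lower); DESeq2 called 0 of the 44 and 32 of all genes. Every vehicle library lay below every HFD library in 3 genes (Clnk, Dab1 and 4833413G10Rik), beside 3.44% of the 14257, and above in 0, beside 4.66%. Ephx1 (-0.08, 95% interval -0.86 to 0.70) and Naaladl1 (0.48, -0.27 to 1.24) show how wide the intervals were. Without HFD Vehicle 23 and 50 the median was 0.17, a turn of direction. The 11 heat shock genes, high in those 2 libraries, had a median of 2.18 for HFD Vehicle over HFD, and their part in the members' values was not tested.

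Each of the remaining comparisons of groups shares a group with either term of the rule and is a description. On TMM-scaled CPM over the 12 libraries, every PCN library lay above every HFD library in 33 of the 44 genes, beside 11.1% of 14800 genes. Without any 1 library the count was 33 to 43, beside 12.6% to 22.5% of genes. Leaving out a library can only loosen this term, so the count could not fall. The 11 that overlapped were Cxcl9, Cd96, Ceacam1, Clnk, Plpp5, Zfp971, Arl15, Ifit1bl2, Dab1, Golph3l and Zfp963. Every vehicle library lay below every Chow library in 30 of the 44, beside 7.53%. Without any 1 library the count, which again could not fall, was 31 to 38, beside 9.76% to 23.5%. Ephx1, Fyb2, Hpgd, Lgr4, Ncald, Sgpp1, Rab9 and 2010106E10Rik were among the 14 that overlapped there.

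The order of libraries within groups was shared by many members. HFD Vehicle 23 was below 50 and 50 below 55 in 32 of the 44 genes, beside 44.5% of the 14257 genes, and HFD PCN 27 was below 11 and 11 below 5 in 21, beside 10.2%. Cyp3a11 had the same orders, with 129, 508 and 1214 CPM in HFD Vehicle 23, 50 and 55 and 11554, 8232 and 5080.1 CPM in HFD PCN 5, 11 and 27. Among the 21 members with this PCN order were Ephx1, Fyb2, Cyb5a, Hsd17b6 and Hsd17b11, and also Aspa, Exph5, Hnf4g, Plpp5, Als2cr12, Cd96 and 2010106E10Rik.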

How the data were processed

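RNA-seq read counts of 12 duodenum libraries were analysed. The authors deposited 2 tables of raw counts per gene, 1 for both untreated groups and 1 for both injected groups. The tools named per the submitters' processing notes are HISAT2, HTSeq and DESeq2, on build GRCm38 (mm10); versions, annotation release, strand setting and read filters are not given in the sources used here, nor whether the libraries of both tables were sequenced together. From the counts, CPM over the library total were computed for the rule (pseudocount 0.5) with Python 3.11.15. Genes in only 1 table were left out of the rule and of fits across tables, and the authors' comparison columns were not used. Fits used edgeR 4.0.16 in R 4.3.3 (filterByExpr, TMM, robust quasi-likelihood F-test, Benjamini-Hochberg adjustment over all genes, called under 0.05), each on the 6 libraries of its groups, raw counts being joined where groups came from both tables; SE of log2 fold changes are approximate. DESeq2 1.42.0, limma 3.58.1 (voom), RLE factors, no filter, 1 fit of all 12 libraries and fits without single libraries were alternatives. The fit was tested on simulated data.

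The members, roles and gene lists were chosen with earlier results of these data known. Genes given in full were the 12 with the largest smaller size of the 2 ratios of the rule, the 6 of highest mean CPM, any gene called, and up to 3 members per gene list; Fyb2, Dab1 and Ifit1bl2 were added after their values were seen, and the others are given by range or mean. Promoter sequences are those of RefSeq on GRCm38.p6; coordinates count from 1. The 3-count floor covers counting error only. No column of values lacked a sample.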

Additional observations from a re-analysis of the deposited data

How the results depend on the processing

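Membership moved with several choices: 25 genes met the rule under TMM factors of each table and 24 under TMM factors over the 12 libraries (17 of the 44 each time), 7 at a fold threshold of 2, and 18 without HFD 4 and HFD Vehicle 23 together, a setting chosen after seeing the data. Without any 1 library the number ran from 24 (without HFD 4; 26 without HFD Vehicle 23) to 174 (without HFD Vehicle 55). Genes meeting both terms before families were set aside fell from 80 to 51 under TMM. Called members are given with the share of all genes called in brackets. For HFD over Chow they moved from 0 (0.0655%) to 9 with no filter (1.25%) and 4 with DESeq2 (0.477%). Without any 1 library they were 0 to 1, the 1 being without HFD 38 (0.421%). For HFD PCN over HFD Vehicle they moved from 1 (0.0621%) to 16 with no filter (843 genes, 2.93%) and 9 with DESeq2 (1.18%). Without any 1 library they were 0 to 30, the 30 being without HFD Vehicle 55 (3697 genes, 22%). For HFD PCN over Chow they moved from 0 (0.34%) to 3 with no filter (1.02%) and 6 with DESeq2 (1.03%). They were 1 with limma-voom (0.294%) and 2 with all 12 libraries in 1 fit (0.0891%). Without any 1 library they were 0 to 6, the 6 being without HFD PCN 27 (2.16%). The cause of these moves was not tested. In HFD Vehicle over HFD no alternative called a member. Where HFD Vehicle 55 stood alone in its group, it was assumed to vary like the other group. No paired analysis was possible because the groups share no replicate numbers. Genes under 10 counts in a library (11 members) limit what the depth can show.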
